A study of Mus musculus with 43 samples.

Results

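Gene expression was compared in inguinal white adipose tissue, a subcutaneous depot near the hind limb. TrkA f/f Th-cre mice, with TrkA floxed on both alleles, were set against wild-type C57BL/6J mice, all at postnatal day 28 and 22 C. The comparison holds 8 of the 43 samples of the study, 4 in each group, and takes every gene of their shared table whose normalized count reached 10 in at least 4 libraries. Of 22622 gene identifiers, 11899 met that rule and were tested. The other 35 samples fall into 7 groups of other genotypes, ages and temperatures and are used here only for the levels of a few genes. The controls are C57BL/6J mice and are not labelled as littermates with floxed TrkA and no Cre, so loss of TrkA, the floxed allele, the Th-cre transgene, strain background and litter cannot be told apart. No label says that the 4 samples of a group are separate animals, and the p-values then measure only the spread between these samples, which may be technical.

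TrkA is a receptor tyrosine kinase of the neurotrophin system. Sympathetic neurons depend on neurotrophic signals from the tissues they innervate for survival and for the growth of their endings. Th encodes tyrosine hydroxylase, the rate-limiting enzyme of catecholamine synthesis, so Th-cre recombines floxed alleles in cells that express it or have done so. In inguinal fat, norepinephrine from sympathetic fibres acts on beta-adrenergic receptors and raises cyclic AMP in adipocytes, which drives lipolysis and the appearance of beige adipocytes, thermogenic cells that make the uncoupling protein Ucp1. The cell bodies of these neurons lie in ganglia outside the fat, so most of their transcripts are not part of a sample of the depot. By its title, the study asks which signals and transcription factors act in the making of beige fat near weaning and in its recruitment by cold.

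Estimated depth was 3495000 to 6420000 reads per library, and 14585 to 15327 genes had a value above 0. The adipocyte genes Adipoq, the hormone adiponectin, and Plin1, a lipid droplet coat protein, were abundant in every library, at 7811 to 13358 and 3660 to 5371 normalized counts. The libraries differed in transcripts of the skeletal muscle and intestinal epithelium lists, shown in the plot of marker lists by library. The source of these transcripts was not tested. Summed over the skeletal muscle list, wild-type libraries held 489.0 to 1193 normalized counts, and TrkA Th-cre libraries 7744, 1523, 1547 and 2187 (replicates 1 to 4), without overlap. Summed over the intestinal epithelium list, wild-type libraries held 303.8, 3731, 17490 and 7555 and TrkA Th-cre libraries 215.0 to 508.5, so wild-type replicates 2 to 4 stood apart from the rest. Xist was at 5839 or more in wild-type replicates 3 and 4 and TrkA Th-cre replicate 3, and at 6.05 or less in the other 5 libraries. With the mean log2 level of the skeletal muscle list as a covariate, 20 genes were called, of which 19 were among the 317 called without it. That covariate does not overlap between the groups, and its part in the gene differences below was not tested.

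**Figure D1:**
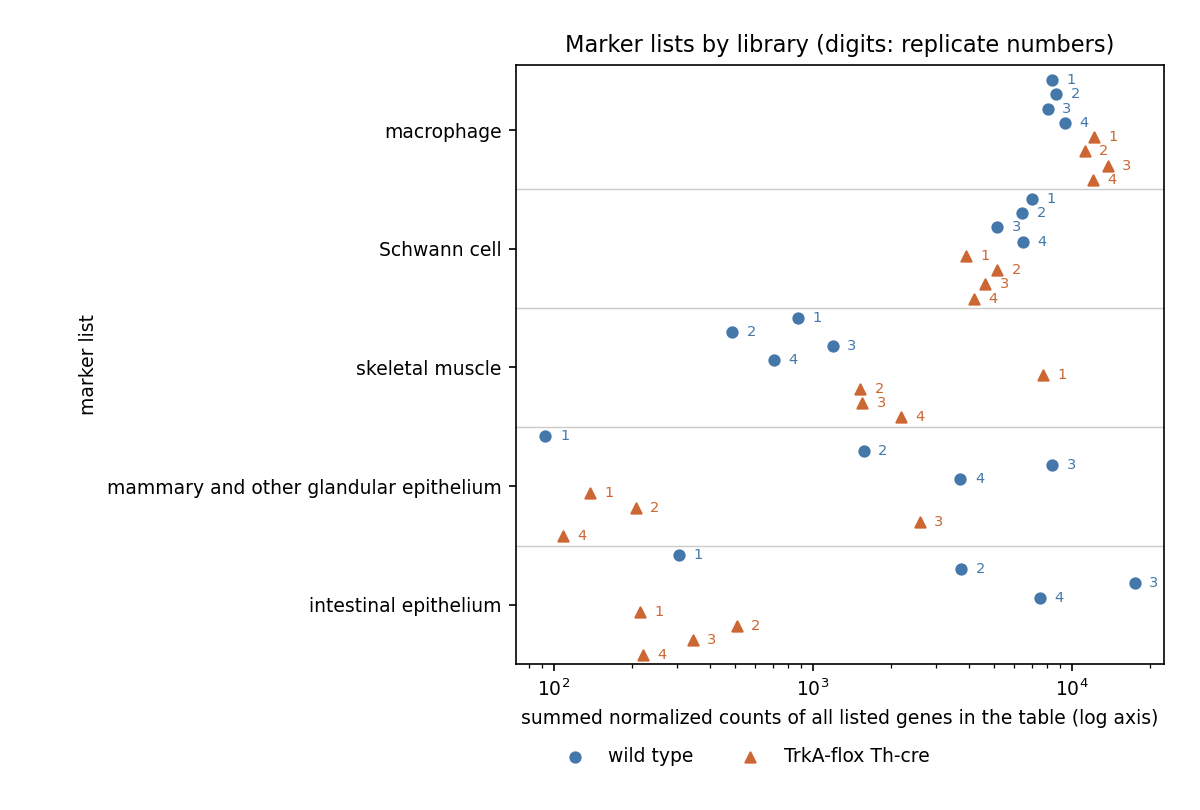
Summed normalized counts of 5 marker lists (log axis) in each wild-type (circles) and TrkA-flox Th-cre (triangles) library, with replicate numbers beside the points. Skeletal muscle sums were 489.0 to 1193 in wild type and 1523 to 7744 in TrkA Th-cre, and macrophage sums were also higher in all TrkA Th-cre libraries, while wild-type replicates 2 to 4 carried the high intestinal sums.

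Th (chromosome 7, 142892779 to 142899995), whose regulatory sequence drives the Cre, was listed at 0 in the 4 wild-type libraries and at 1.31, 0, 1.01 and 0 in TrkA Th-cre, too low to test. The neurons in which Th-cre acts have their cell bodies outside the tissue.

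Across the transcriptome, 317 of 11899 genes changed at an adjusted p under 0.05, a share of 2.66%. Of these, 160 were higher in TrkA Th-cre (1.34%) and 157 lower (1.32%), and 135 differed at least 2-fold (1.13%), 67 upward and 68 downward. At an unadjusted p under 0.05 there were 2280 of the 11899 genes. These shares over all genes are the background for the counts of list and family members below. The libraries of the groups did not overlap in 314 of the 317, against 1333 of all tested genes (11.2%). The median absolute log2 fold change of the changed genes was 0.91, and the median over all genes was -0.01. The count rests on single libraries. It was 924 without TrkA Th-cre replicate 4, which lay nearest to wild type in 66 of the 135 genes (48.9%), and 93 without wild-type replicate 4. It was 100 without wild-type replicate 2, 103, 117 and 137 without TrkA Th-cre replicates 1, 2 and 3, and 295 and 275 without wild-type replicates 1 and 3. Of the 317 genes, 67 were called whichever library was left out.

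The largest rises were close to absent in one group and abundant in the other. Hal, the histidine ammonia-lyase that starts histidine breakdown (chromosome 10, 93488768 to 93516761), was at 1.04, 0, 0.973 and 0.784 in wild type and at 194, 178, 516 and 201 in TrkA Th-cre. The groups were far apart in every library, with a log2 fold change of 7.23 ± 0.39 (SE; adjusted p = 4.67e-05, limma). Ifi202b, a member of the interferon-inducible Ifi200 family of DNA-binding proteins (chromosome 1, 173962569 to 173982844), was at 0 in all wild-type libraries and at 152, 134, 226 and 54.1 in TrkA Th-cre (adjusted p = 6.06e-05, limma). Gbp2b, an interferon-inducible guanylate-binding GTPase, was at 4.22, 3.69, 13.6 and 8.74 in wild type against 380, 345, 375 and 255 in TrkA Th-cre, a log2 fold change of 5.45 ± 0.34 (SE; adjusted p = 6.06e-05, limma). The lowest TrkA Th-cre library was far above the highest wild-type library for each of them. Expression of Ifi202b and Gbp2b is known to differ between inbred mouse strains. The predicted genes BC018473, Gm6756 and Gm8096 showed the same on-off pattern, with wild-type levels of at most 1.04, 2.08 and 0.

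Among the methyltransferase-like Mettl7 genes, 3 of the 4 tested changed, Mettl7a2 and Mettl7a3 upward and Mettl7b downward. Mettl7b was at 32.2, 62.7, 241 and 89.4 in wild type and at 23.6, 18.2, 12.1 and 11.9 in TrkA Th-cre (adjusted p = 0.0468, limma). Within wild type it had the order of the intestinal sums. The Mettl7b call was lost without any 1 of 6 libraries (limma adjusted p up to 0.133). Mettl7a3 was at 1.04, 2.92, 3.89 and 0 in wild type and at 93, 95.7, 67.5 and 38.9 in TrkA Th-cre, a log2 fold change of 4.82 ± 0.53 (SE; adjusted p = 0.00188, limma). Mettl7a2 was at 0, 1.46, 7.78 and 4.71 in wild type and at 40.6, 162, 66.5 and 41.1 in TrkA Th-cre (adjusted p = 0.0137, limma). Of the 31-base words of the transcripts, 52.2% of those of Mettl7a3 occur in Mettl7a2 and 46.9% of those of Mettl7a2 in Mettl7a3. Over all other genes these shares were 60.9% and 72.2%, and 26.2% of the words of Mettl7a1 occur in Mettl7a2. The split of reads between these copies is uncertain. The third copy, Mettl7a1, was at 1122 to 1209 in wild type and at 1710, 1737, 1767 and 1206 in TrkA Th-cre and did not pass (adjusted p = 0.0965, limma).

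Of the 8 largest falls, Unc5a, Rab6b, Trim30b and Gm18853 were well above the TrkA Th-cre level in every wild-type library. The other 4, Mptx1, Hnf4a, Gsdmc4 and Fosb, were at 11.4 to 22.9 in wild-type replicate 1, much lower than in the other wild-type libraries, and are described with their lists further on. Unc5a, a netrin receptor that mediates repulsion of growing axons (chromosome 13, 54945151 to 55006018), was at 175, 243, 142 and 288 in wild type and at 0, 0, 9.08 and 8.66 in TrkA Th-cre. Every TrkA Th-cre library was below every wild-type library, with a log2 fold change of -6.03 ± 0.78 (SE; adjusted p = 0.00507, limma). Rab6b, a small GTPase of Golgi vesicle transport best known from neurons, was at 138, 147, 108 and 132 in wild type and at 10.5, 4.85, 10.1 and 8.65 in TrkA Th-cre, a log2 fold change of -3.84 ± 0.25 (SE; adjusted p = 6.06e-05, limma). Trim30b, of the Trim5/30 family, fell from 36.8, 24.6, 33.1 and 19.3 to 0, 0, 0 and 5.32 (adjusted p = 0.0133, limma) and lost significance without wild-type replicate 2 (adjusted p = 0.0511, limma). Gm18853, a predicted gene nearly all of whose 31-base words (99.9%) occur in other genes, was at 21.8 to 86.6 in wild type and listed at 0 in all TrkA Th-cre libraries.

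**Figure D2:**
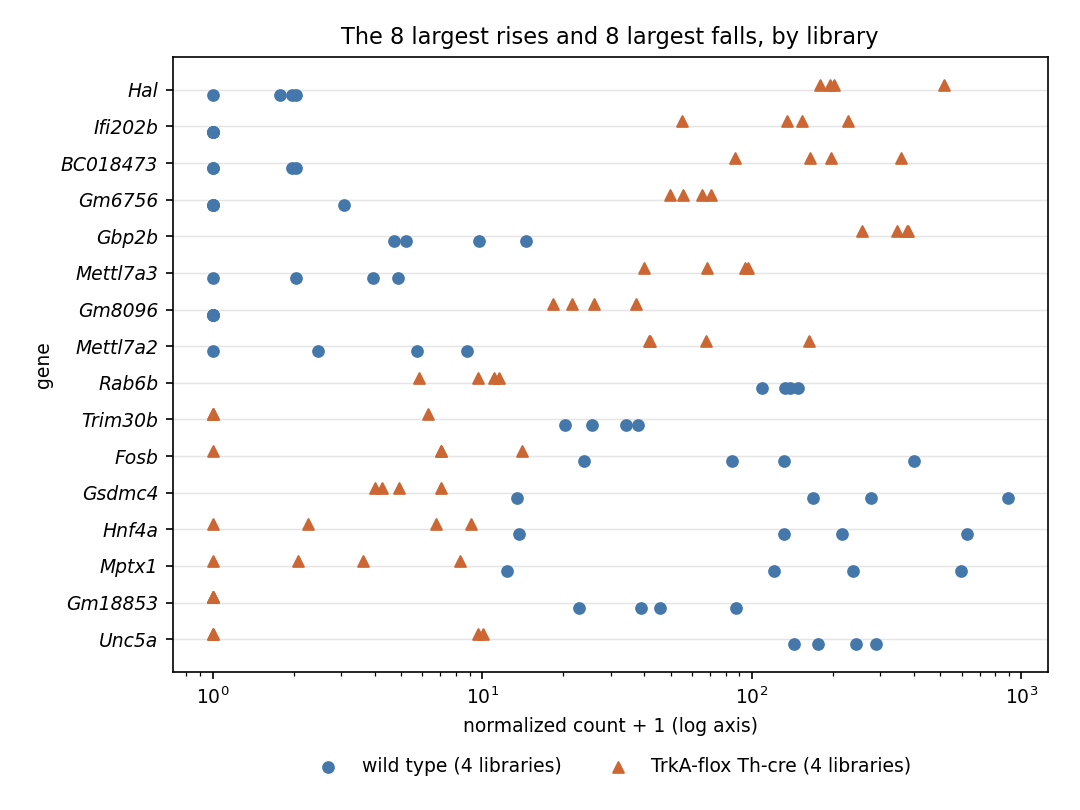
Normalized counts plus 1 (log axis) in each wild-type (circles) and TrkA-flox Th-cre (triangles) library for the 8 largest rises and 8 largest falls among the genes that changed. Hal, Ifi202b and Gbp2b were at 13.6 or less in wild type and at 54.1 or more in every TrkA Th-cre library, and Unc5a and Rab6b showed the reverse.

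In the 35 libraries of the other groups, whose tables were normalized separately and are not on 1 scale with this one, most of these genes had levels on the wild-type side. Ifi202b was listed at 0 in all 35, Hal ran from 0 to 57.5 with a median of 1.08, and Gbp2b from 0 to 34.9. BC018473 did not exceed 6.62, Mettl7a3 9.86 and Mettl7a2 14.8. Unc5a ran from 156 to 1620 and Rab6b from 115 to 833. Trim30b (0 to 40.8, median 3.66) and Gm18853 (0 to 104, median 30.8) ran from the TrkA Th-cre level to above the wild-type level.

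Genes of thermogenic fat were lower where they passed. Of 25 tested members of the thermogenic list, 5 fell (1.32% of all genes fell), none rose and 20 did not pass, with a median log2 fold change of -0.32 against -0.01 over all genes. Ucp1, the mitochondrial proton carrier that dissipates the proton gradient as heat (chromosome 8, 83290348 to 83298456), was at 1934, 1854, 842 and 1552 in wild type and at 528, 635, 180 and 334 in TrkA Th-cre. The groups did not overlap, and the log2 fold change was -1.96 ± 0.38 (SE; adjusted p = 0.0284, limma). Ucp1 lost significance when wild-type replicate 1, 2 or 4 or TrkA Th-cre replicate 1 was left out, with limma adjusted p values up to 0.0849. The number of list members that fell was 2 without wild-type replicate 2 or 4 and 3 without TrkA Th-cre replicate 1.

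Acot11, an acyl-CoA thioesterase of brown fat, and Gk, the glycerol kinase that lets thermogenic adipocytes reuse glycerol, fell by more than their spread whichever library was left out. Acot11 was at 222, 259, 156 and 210 in wild type and at 57.6, 70.7, 69.6 and 78.2 in TrkA Th-cre, a log2 fold change of -1.59 ± 0.17 (SE; adjusted p = 0.00132, limma). Gk was at 161, 164, 198 and 180 against 68.5, 88.8, 54.6 and 66.7, a log2 fold change of -1.34 ± 0.16 (SE; adjusted p = 0.00246, limma). Neither gene overlapped between groups. Cox7a1, a cytochrome c oxidase subunit of muscle and brown fat, fell from 151 to 182 down to 45.4 to 93.3 (adjusted p = 0.0174, limma). It lost significance without wild-type replicate 2 or 4 (limma adjusted p up to 0.0589) and with the muscle covariate (limma adjusted p = 0.276). The log2 fold change of Cox7a1 was -1.23 without that covariate and -1.33 with it. Skeletal muscle transcripts were higher in the TrkA Th-cre libraries, and their part in the Cox7a1 difference was not tested. Acsf2, an acyl-CoA synthetase that shares 40.3% of its 31-base words with other genes, fell by 0.57 on the log2 scale (adjusted p = 0.0242, limma) and lost significance without any 1 of 4 libraries, wild-type replicates 2 and 4 and TrkA Th-cre replicates 1 and 2.

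The regulators and many other markers of the beige program did not pass. Prdm16, the transcriptional coregulator of brown and beige identity, was at 80.3 to 121 in wild type and 90.6 to 127 in TrkA Th-cre, a log2 fold change of 0.08. Ppargc1a, the coactivator of mitochondrial biogenesis, was at 93, 101, 103 and 84.7 against 47.6, 169, 80.5 and 47.5, with overlap and a log2 fold change of -0.35 (adjusted p = 0.637, limma). Cidea, a lipid droplet protein, was at 1364, 1189, 780 and 938 against 786, 1224, 906 and 567 (adjusted p = 0.504, limma). Cpt1b and Letmd1 had log2 fold changes of -0.93 and -0.55 and missed the threshold (limma adjusted p = 0.0915 and 0.0531). After adding the muscle covariate none of the list was called, its median log2 fold change was -0.01, and the difference for Ucp1 was -2.10 (adjusted p = 0.332, limma).

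**Figure D3:**
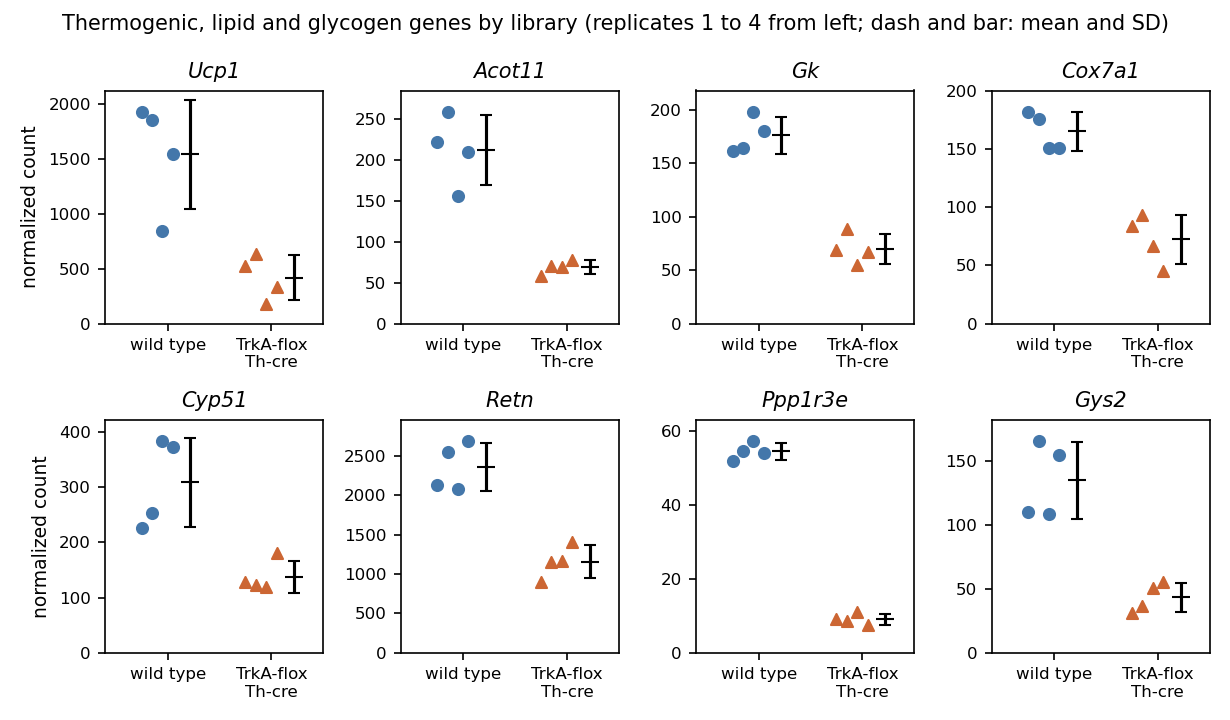
Normalized counts of 4 thermogenic genes (Ucp1, Acot11, Gk, Cox7a1) and of Cyp51, Retn, Ppp1r3e and Gys2, described further on, in each wild-type (circles) and TrkA-flox Th-cre (triangles) library, with replicates 1 to 4 from left and a dash and bar for the mean and SD (n = 4). Every gene was lower in all TrkA Th-cre libraries than in any wild-type library, Ucp1 at 180 to 635 against 842 to 1934.

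The lists of oxidative phosphorylation, the citric acid cycle and fatty acid oxidation had medians a little below 0. None of 33 tested genes of oxidative phosphorylation passed, although 32 had a negative log2 fold change, with a median of -0.23. An unadjusted p under 0.05 was reached by 11, against 2280 of all 11899 genes. In the citric acid cycle list none of 18 passed (median -0.31), 8 of them at an unadjusted p under 0.05. Among 24 genes of fatty acid oxidation 1 fell, Acot11, and 21 were negative (median -0.24). In creatine and calcium cycling none of 10 passed, with 6 at an unadjusted p under 0.05, and log2 fold changes ran from -4.99 to 2.41. Its lowest member, Ckmt1, was at 13.2, 211, 1007 and 333 in wild type and at 2.17, 14.3, 9.12 and 1.05 in TrkA Th-cre (adjusted p = 0.0505, limma). Within wild type Ckmt1 had the order of the intestinal sums. Among antioxidant enzymes, a family chosen after its values were seen, 3 of 18 fell and 1 rose, against 1.32% and 1.34% of all genes. The superoxide dismutases Sod2 of mitochondria and Sod3 of the extracellular space and the mitochondrial peroxiredoxin Prdx3 fell by 0.52, 0.59 and 0.47 on the log2 scale (limma adjusted p = 0.0253, 0.0325 and 0.0249). These calls were lost without any 1 of 6, 6 and 5 libraries, with adjusted p up to 0.0811, 0.106 and 0.0801. Gpx3, the secreted glutathione peroxidase, was at 6288, 6713, 5378 and 6148 in wild type and at 12600, 13815, 14638 and 14558 in TrkA Th-cre. It rose in every library, with a log2 fold change of 1.18 ± 0.12 (SE; adjusted p = 0.00132, limma), and was among the 20 genes still called with the muscle covariate. Ucp2, an uncoupling protein homologue found in many cell types and macrophages, rose from 1251 to 1525 up to 1927 to 2425 (adjusted p = 0.0107, limma), opposite to Ucp1.

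In fatty acid synthesis 2 of 15 tested genes fell (1.32% of all genes fell) and none rose, with a median log2 fold change of -0.39. Acss2, which makes acetyl-CoA from acetate, was at 2039, 2853, 1383 and 2998 in wild type and at 746, 930, 1352 and 701 in TrkA Th-cre. Wild-type replicate 3 lay just above TrkA Th-cre replicate 3, and the log2 fold change was -1.30 ± 0.27 (SE; adjusted p = 0.0344, limma). Fads2, the delta-6 desaturase of polyunsaturated fatty acids, fell by 1.13 on the log2 scale (adjusted p = 0.0456, limma). It was at 86.9, 102, 187 and 112 in wild type and at 44.9, 48.0, 76.5 and 47.7 in TrkA Th-cre. Within wild type Fads2 had the order of the intestinal sums, and the part of the intestinal transcripts was not tested. Each lost significance without any 1 of 5 libraries, with limma adjusted p values up to 0.105 for Acss2 and 0.122 for Fads2, and neither was called without wild-type replicate 2 or 4 or TrkA Th-cre replicate 1 or 2. The main enzymes did not pass: Fasn, fatty acid synthase, had a log2 fold change of -0.34, Acly, ATP-citrate lyase, of -0.70, and Scd1, stearoyl-CoA desaturase, of -0.39.

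Of 23 genes of triglyceride synthesis and lipolysis, Gk, Agpat2 and Fabp5 fell (1.32% of all genes fell) and none rose (median -0.10). Agpat2, the acyltransferase whose loss causes lipodystrophy, was at 2038, 2089, 1731 and 2964 in wild type and at 928, 1040, 1274 and 877 in TrkA Th-cre, a log2 fold change of -1.08 ± 0.17 (SE; adjusted p = 0.0132, limma). The groups did not overlap, and without TrkA Th-cre replicate 1 the limma adjusted p was 0.0501. Fabp5, a fatty acid-binding protein, was at 1834, 2412, 1160 and 2290 against 782, 972, 1188 and 876, overlapping at wild-type replicate 3, and its adjusted p of 0.0475 (limma) rose to as much as 0.143 with 1 library left out. Of the markers of mature adipocytes, Adipoq, Lep, Pparg and Plin1 did not pass, with log2 fold changes of 0.33, 0.05, 0.18 and -0.10.

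Cholesterol synthesis was the metabolic list with the lowest median. All 22 tested members had a negative log2 fold change, 6 passed (27.3%, against 1.32% of all genes in that direction), 14 did not overlap between groups (5.57% of all genes in that direction), and the median was -0.75. Cyp51, the lanosterol demethylase, was at 226, 254, 384 and 373 in wild type and at 128, 122, 119 and 181 in TrkA Th-cre. Its groups did not overlap, with a log2 fold change of -1.15 ± 0.20 (SE; adjusted p = 0.0191, limma), and it lost significance without wild-type replicate 4 or TrkA Th-cre replicate 1, 2 or 3 (limma adjusted p up to 0.0649). Within wild type Cyp51 had the order of the intestinal sums, and the part of the intestinal transcripts was not tested. Msmo1 and Sc5d, which also act on the sterol ring system, fell by 0.99 and 0.79, and Idi1, the isopentenyl isomerase, and Ebp, the sterol isomerase, by 0.71 and 0.47. These 4 lost significance in 5, 3, 6 and 6 of the 8 fits with 1 library left out.

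Other members missed the threshold. Sqle, squalene epoxidase, was at 114 to 218 against 42.4 to 102 without overlap (log2 fold change -1.16, limma adjusted p = 0.0748). Hmgcs1, which makes HMG-CoA, had a log2 fold change of -0.17. The number of members that fell was 1 without TrkA Th-cre replicate 1, 2 or 3, 2 without wild-type replicate 4 and 15 without TrkA Th-cre replicate 4, while the median stayed between -0.66 and -0.82. With the muscle covariate none was called and the median was -0.69. Promoters were taken from RefSeq (GRCm38.p6, 250 bases before to 50 after the start). The sterol response element was searched as 1 exact string on both strands. It was in none of the 16 list members with a promoter entry and in 5 of 9478 tested genes (0.0528%). At so low a share over all genes, none among 16 promoters would be usual for any list. The search could therefore not decide whether these genes have such elements. The cAMP response element TGACGTCA, also searched on both strands, was in 302 of 9478 (3.19%) and in none of the 16 of the cholesterol list. It was in 2 of 10 promoters of the immediate early list described further on, Btg2 and Dusp1, and in 2 of 14 of the fatty acid synthesis list. Both lists had a negative median log2 fold change. The element was in 7 of 124 promoters of genes that rose (5.65%) and in none of 123 of genes that fell. The difference between the directions was not tested.

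Glycogen genes were chosen as a family after their values were seen, and 2 of 11 tested fell, against 1.32% of all genes. Ppp1r3e, a subunit that targets protein phosphatase to glycogen, was at 52.0, 54.7, 57.4 and 54.1 in wild type and at 9.17, 8.48, 11.1 and 7.57 in TrkA Th-cre, a log2 fold change of -2.47 ± 0.21 (SE; adjusted p = 0.000391, limma). Its replicates were tight and far apart, and it was called with the muscle covariate too. Gys2, the liver-type glycogen synthase, was at 110, 166, 109 and 155 against 31.4, 36.3, 50.4 and 55.2 (log2 fold change -1.63 ± 0.22, SE; limma adjusted p = 0.00699). Both were called whichever library was left out. In glycolysis and glucose uptake 2 of 15 fell (median -0.35), against 1.32% of all genes. They were Pfkp, the platelet-type phosphofructokinase (log2 fold change -0.61, limma adjusted p = 0.0125), which reached 0.0506 without wild-type replicate 4, and Pgam1, phosphoglycerate mutase (-0.49, limma adjusted p = 0.0413), which shares 37.1% of its 31-base words with other genes. Slc2a4, the insulin-regulated glucose transporter, had a log2 fold change of -0.34 and did not pass.

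Of 15 adipokines and mature adipocyte genes, 1 fell and 1 rose. Retn, the adipokine resistin, was at 2134, 2546, 2078 and 2690 in wild type and at 895, 1153, 1170 and 1408 in TrkA Th-cre. It was lower in every TrkA Th-cre library, with a log2 fold change of -1.04 ± 0.14 (SE; adjusted p = 0.00742, limma), and was called with any 1 library left out. Nnat, neuronatin, an imprinted proteolipid of adipocytes and neurons, was at 4316, 3062, 3384 and 2731 against 9614, 7452, 5198 and 5318 and rose (adjusted p = 0.0374, limma), but its adjusted p reached 0.123 with 1 library left out. Ghr, the growth hormone receptor, rose from 3436 to 3729 up to 4591 to 6719, a log2 fold change of 0.64 ± 0.12 (SE; adjusted p = 0.0257, limma), and lost significance without any 1 of 5 libraries (limma adjusted p up to 0.0849). Ghr was among genes chosen after their values were seen.

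**Figure D4:**
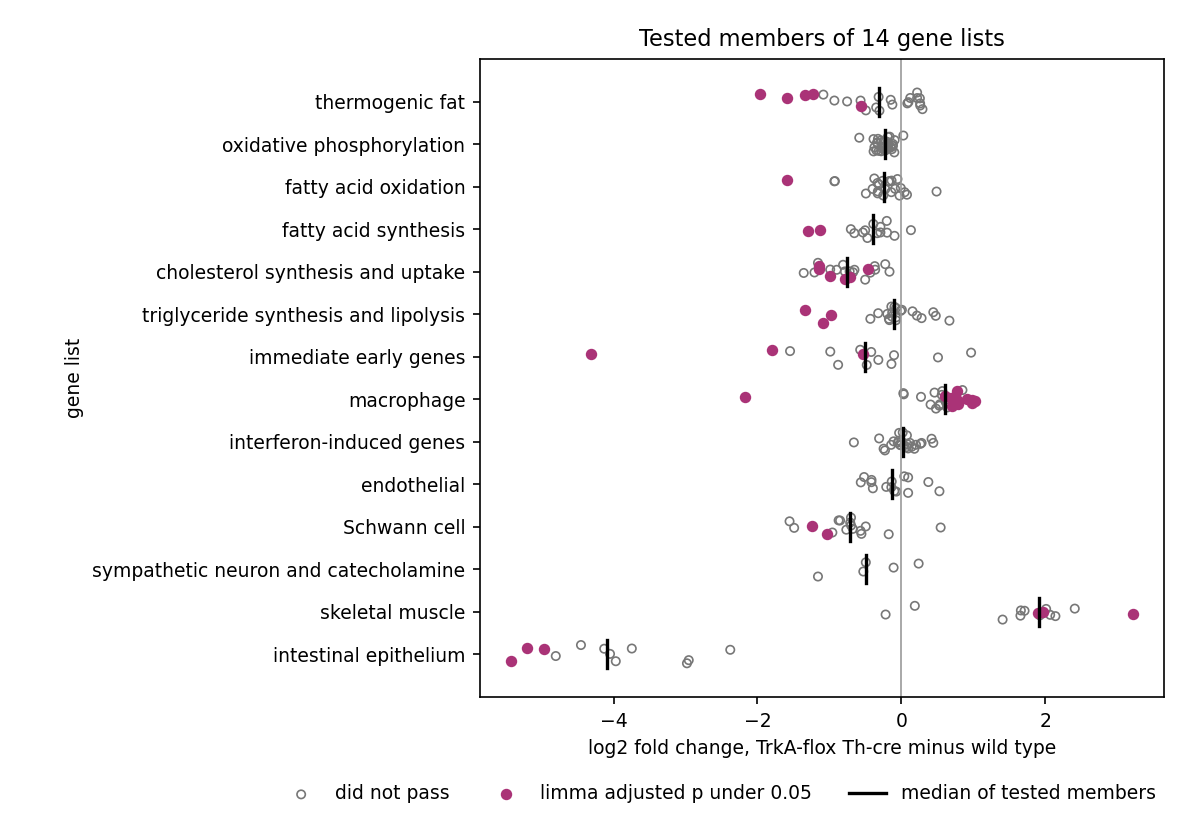
Log2 fold changes (TrkA-flox Th-cre minus wild type) of the tested members of 14 gene lists, with filled points for limma adjusted p under 0.05 and a bar at each median. The cholesterol list lay wholly below 0 (median -0.75), the macrophage list above 0 (median 0.61) except for Lgals3, and the interferon list around 0 (median 0.03).

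Among the lists of immune cell types, the macrophage list alone held called genes. Of 24 tested members of the macrophage list 10 rose and 1 fell (45.8% called against 2.66% of all genes), 23 had a positive log2 fold change, and the median was 0.61. In bulk tissue, more cells of a type and more RNA per cell cannot be told apart, and the same holds for falls. Summed over the list, wild-type libraries held 8075 to 9441 normalized counts and TrkA Th-cre libraries 11220 to 13770. None of 11 dendritic cell and monocyte, 14 T and NK cell, 9 B cell, 7 neutrophil, mast cell and eosinophil, 17 MHC or 26 interferon-induced genes passed in limma. At an unadjusted p under 0.05 these lists held 2, 1, 2, 1, 0 and 0 genes, against 2280 of all 11899 genes.

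The genes that encode lysozyme, the muramidase of macrophages, lie next to each other and moved together. Lyz2 was at 1930, 1658, 1788 and 2000 in wild type and at 3098, 2739, 3284 and 2869 in TrkA Th-cre, a log2 fold change of 0.70 ± 0.10 (SE; adjusted p = 0.00742, limma). Lyz1, added after its values were seen, was at 453, 383, 440 and 484 against 815, 640, 707 and 623 (log2 fold change 0.66 ± 0.11, SE; limma adjusted p = 0.0162), and its adjusted p was 0.0511 without wild-type replicate 2. All TrkA Th-cre libraries were above all wild-type libraries for each gene. The copies share 34.2% (Lyz1) and 32.8% (Lyz2) of their 31-base words with other genes, so the split between them is uncertain. Their promoters are printed because the genes moved together and are close copies: over the 100 bases before each start 92 were identical, and capitals mark the 8 that differ (minus strand, RefSeq GRCm38.p6, Lyz1 at chr10:117292869-117292968 and Lyz2 at chr10:117282273-117282372).
Lyz1: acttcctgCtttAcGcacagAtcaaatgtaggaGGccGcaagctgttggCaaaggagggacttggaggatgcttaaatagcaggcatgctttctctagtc
Lyz2: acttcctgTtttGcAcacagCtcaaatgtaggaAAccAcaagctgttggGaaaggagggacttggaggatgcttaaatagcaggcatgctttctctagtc

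Receptors of tissue-resident macrophages rose too. Mrc1, the mannose receptor CD206, was at 546, 613, 442 and 595 in wild type and at 1060, 819, 933 and 941 in TrkA Th-cre, a log2 fold change of 0.78 ± 0.12 (SE; adjusted p = 0.0122, limma). Timd4, a phosphatidylserine receptor of resident macrophages, was at 183, 193, 172 and 174 against 390, 360, 335 and 281 (log2 fold change 0.91 ± 0.11, SE; limma adjusted p = 0.00345). Neither overlapped, and both were called with any 1 library left out. Csf1r, the receptor for the macrophage growth factor, rose by 0.77 on the log2 scale (adjusted p = 0.0187, limma) and lost significance without TrkA Th-cre replicate 1, 2 or 3 (limma adjusted p up to 0.0585). The scavenger receptor Cd163, the lectin Clec10a, the Fc receptor Fcgr3, the integrin Itgam, the complement component C1qb and the transcription factor Maf rose by 0.60 to 1.03 and lost significance in 7, 4, 1, 5, 5 and 4 of the 8 fits with 1 library left out. The pan-macrophage markers Adgre1 (F4/80) and Cd68 did not pass, with log2 fold changes of 0.48 and 0.46 (limma adjusted p = 0.178 and 0.234).

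Lgals3 (galectin-3) went the other way, at 424, 664, 1524 and 993 in wild type and 149, 174, 202 and 193 in TrkA Th-cre, a log2 fold change of -2.17 ± 0.32 (SE; adjusted p = 0.0107, limma). Its levels were highest in wild-type replicates 2 to 4, which also had the high intestinal sums, and wild-type replicate 1, with a low intestinal sum, was still above all TrkA Th-cre libraries. The part of the intestinal transcripts in the difference was not tested. In a further family of resident macrophage genes, chosen after its values were seen and so no separate support, 13 of 17 tested rose (1.34% of all genes). Ccl8, a monocyte-attracting chemokine, was at 49.9, 70.0, 33.1 and 58.8 in wild type and at 173, 190, 187 and 298 in TrkA Th-cre, a log2 fold change of 2.00 ± 0.24 (SE; adjusted p = 0.00345, limma). Cd209b, a lectin of the SIGNR family, was at 239, 246, 227 and 239 against 735, 613, 517 and 392 (log2 fold change 1.21 ± 0.16, SE; limma adjusted p = 0.00736). Both were separated in every library. Siglec1, the sialoadhesin of resident macrophages, and the secreted proteins Retnla and Gas6 rose by 1.03, 1.05 and 1.15 and lost significance in 4, 6 and 6 of those fits. The number of macrophage list members that rose was 4 without TrkA Th-cre replicate 1 or 3, 5 without wild-type replicate 2 or 4 or TrkA Th-cre replicate 2, and 12 without TrkA Th-cre replicate 4. With the muscle covariate none of the list was called, and its median was 0.70.

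**Figure D5:**
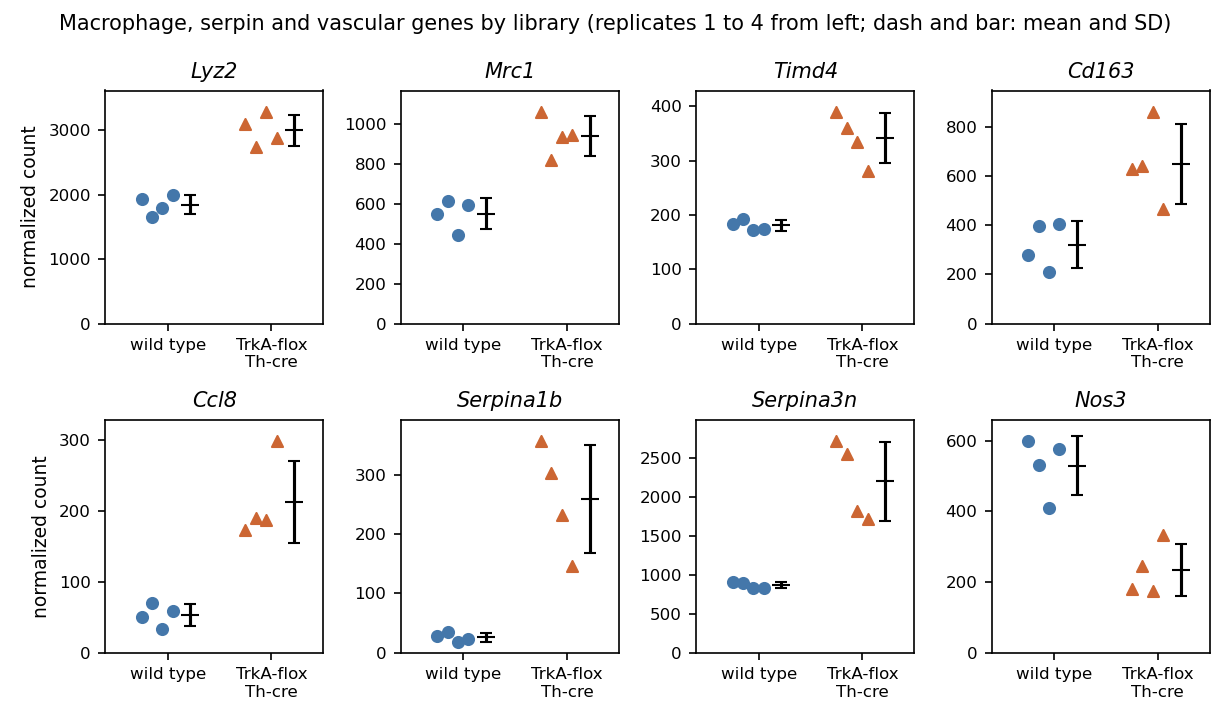
Normalized counts of 5 macrophage genes (Lyz2, Mrc1, Timd4, Cd163, Ccl8), 2 serpins and Nos3 in each wild-type (circles) and TrkA-flox Th-cre (triangles) library, with replicates 1 to 4 from left and a dash and bar for the mean and SD (n = 4). Timd4 lay at 172 to 193 in wild type and 281 to 390 in TrkA Th-cre and Serpina1b at 17.6 to 34.9 and 147 to 357, while Nos3 was lower in all TrkA Th-cre libraries.

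Secreted protease inhibitors of the Serpina family, which includes alpha-1 antitrypsin and antichymotrypsin, rose in a cluster on chromosome 12 (gene starts 103728156 to 104406646). The family was chosen after its values were seen: 4 of 9 tested members rose (1.34% of all genes rose), none fell, and 8 were positive. Serpina1b was at 28, 34.9, 17.6 and 22.9 in wild type and at 357, 303, 232 and 147 in TrkA Th-cre, a log2 fold change of 3.25 ± 0.29 (SE; adjusted p = 0.000452, limma). Serpina1a was at 12.2, 14.2, 8.44 and 7.36 against 71.0, 43.2, 66.2 and 57.1 (log2 fold change 2.41, limma adjusted p = 0.00205), and 65.2% of its 31-base words occur in other genes. The lowest TrkA Th-cre library was several times the highest wild-type library for each of them. The promoters of this pair are printed because the copies rose together: 96 of 100 bases were identical, with the 4 that differ in capitals (minus strand, RefSeq GRCm38.p6, Serpina1a at chr12:103863620-103863719, the bases 100 to 1 before its start, and Serpina1b at chr12:103738195-103738294, the bases 105 to 6 before its start).
Serpina1a: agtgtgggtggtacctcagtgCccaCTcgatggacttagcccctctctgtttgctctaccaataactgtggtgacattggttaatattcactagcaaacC
Serpina1b: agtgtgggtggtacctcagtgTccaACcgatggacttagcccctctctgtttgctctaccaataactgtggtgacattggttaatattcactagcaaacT

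The antichymotrypsin-like copies rose too. Serpina3n was at 912, 902, 835 and 831 in wild type and at 2722, 2555, 1826 and 1713 in TrkA Th-cre, a log2 fold change of 1.31 ± 0.15 (SE; adjusted p = 0.00205, limma). Serpina3m was at 12.2, 12.9, 22.5 and 13.2 against 98.7, 158, 86.2 and 56.6 (log2 fold change 2.58, limma adjusted p = 0.00345), with 35% of its 31-base words shared. TrkA Th-cre replicate 4 was the lowest of its group for Serpina1b, Serpina3m and Serpina3n and still above all wild-type libraries. All 4 serpins were called with any 1 library left out. Hp, the hemoglobin-binding plasma protein haptoglobin, was at 6194, 5828, 4118 and 4603 against 11707, 15694, 6937 and 12430 and rose by 1.13 ± 0.24 (SE; adjusted p = 0.0373, limma), a call lost without any 1 of 5 libraries (limma adjusted p up to 0.121). Of 20 complement genes, also chosen afterwards, 5 rose (1.34% of all genes rose). Among them were C6, C1qb, Cd59a and C4a, with log2 fold changes of 0.57 to 1.62. Their calls were lost in 3, 5, 7 and 6 of the 8 fits with 1 library left out. Cd93, a lectin-like receptor of endothelium and myeloid cells, fell by 0.71 (adjusted p = 0.0114, limma).

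Nos3, the endothelial nitric oxide synthase, was at 599, 531, 410 and 577 in wild type and at 181, 245, 175 and 332 in TrkA Th-cre, a log2 fold change of -1.21 ± 0.20 (SE; adjusted p = 0.0169, limma). Nos2, the inducible synthase, fell from 114, 80.0, 70.9 and 82.9 to 28.8, 27.8, 33.2 and 49.9 (adjusted p = 0.0179, limma). Neither overlapped between groups. The vasodilator peptide apelin, encoded by Apln, fell by 1.53 ± 0.25 (SE; adjusted p = 0.0146, limma), and its receptor Aplnr, at 548, 427, 354 and 337 against 166, 148, 135 and 171, by 1.40 ± 0.16 (SE; adjusted p = 0.00194, limma). Aplnr was called with any 1 library left out. Nos3 reached a limma adjusted p of 0.0586, Nos2 0.0588 and Apln 0.0524 without 1 library, wild-type replicate 4 and TrkA Th-cre replicate 1 being among those that ended each call. These 4 genes were taken as families after their values were seen.

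None of 15 endothelial genes passed in limma (median -0.13, 6 at an unadjusted p under 0.05), and Pecam1, the CD31 adhesion molecule, was at 1217 to 1591 in wild type and 1153 to 1238 in TrkA Th-cre. In the smooth muscle and pericyte list 2 of 12 fell. They were Kcnj8, a potassium channel subunit of pericytes, and Notch3, a Notch receptor of mural cells (log2 fold changes -0.77 and -0.56, limma adjusted p = 0.0373 and 0.0476), each lost in 6 of the 8 fits with 1 library left out (adjusted p up to 0.109 and 0.134). None of 18 progenitor and fibroblast genes passed (6 at an unadjusted p under 0.05). Of 27 matrix genes the matricellular Thbs2 and the protease inhibitor Timp2 rose, by 0.97 and 0.57 (limma adjusted p = 0.0231 and 0.0328), and lost significance in 4 and 6 of the 8 fits with 1 library left out (adjusted p up to 0.0705 and 0.0908).

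Among neurotrophins and their receptors, 1 of 10 tested rose. Ntrk2, which encodes TrkB, the receptor for brain-derived neurotrophic factor, was at 996, 1012, 908 and 999 in wild type and at 1772, 1573, 1615 and 1272 in TrkA Th-cre. It was higher in every TrkA Th-cre library, with a log2 fold change of 0.66 ± 0.11 (SE; adjusted p = 0.0137, limma), and its adjusted p stayed at or below 0.0486 with 1 library left out. The co-receptor Sort1 had a log2 fold change of 0.05 and did not pass, and Ret, the receptor of the glial-derived family, was at 62.9 to 87.3 against 33.9 to 61.1 (adjusted p = 0.0756, limma). Beside Unc5a, the second netrin receptor Unc5b was at 157, 159, 172 and 161 in wild type and at 69.2, 69.8, 74.1 and 108 in TrkA Th-cre, a log2 fold change of -1.03 ± 0.15 (SE; adjusted p = 0.0107, limma). The other 13 of 15 tested axon guidance genes did not pass.

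Most transcripts listed for sympathetic neurons were below the filter. Of 18 listed genes in the data, 5 could be tested, among them the broadly expressed Maoa and Maob, none passed in limma (1 at an unadjusted p under 0.05), and the sums over the list were 1752 to 2300 in wild type and 1593 to 1981 in TrkA Th-cre. Dbh, the enzyme that makes norepinephrine, was at 0 in all 8 libraries. Maoa, a catecholamine-degrading enzyme made by many cell types, did not pass. Th and Dbh were too low for a comparison of the groups. In the adrenergic and cAMP response list none of 15 passed (median 0.40). An unadjusted p under 0.05 was reached by 7, against 2280 of all 11899 genes. Adrb3, the beta3-adrenergic receptor of adipocytes, was at 1900, 2544, 1751 and 2024 in wild type and at 1261, 1749, 1784 and 1867 in TrkA Th-cre, with overlap. Irf4, a cAMP-induced transcription factor of adipocytes, was at 203, 265, 221 and 249 against 705, 1626, 723 and 310, without overlap, and missed the threshold (log2 fold change 1.61, limma adjusted p = 0.0581).

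Schwann cells ensheathe the nerve fibres of the depot, and their genes were mostly lower. Of 17 tested, 2 fell, 16 were negative, 7 did not overlap (against 5.57% of all genes in that direction), and the median was -0.71. Cdh19, a cadherin of the Schwann cell lineage, was at 32.2, 32.8, 30.2 and 37.7 in wild type and at 17, 17, 17.1 and 11.9 in TrkA Th-cre (log2 fold change -1.04 ± 0.22, SE; limma adjusted p = 0.0381). Pllp, the myelin protein plasmolipin, fell by 1.25 (adjusted p = 0.0490, limma). It was at 41.6, 47.4, 98.3 and 73.0 in wild type and at 23.6, 30.3, 29.2 and 19.5 in TrkA Th-cre. Within wild type Pllp had the order of the intestinal sums, and the part of the intestinal transcripts in its difference was not tested. The Cdh19 and Pllp calls were each lost in 7 of the 8 fits with 1 library left out, with adjusted p up to 0.140 and 0.157. Without wild-type replicate 2 or 4, or without any of TrkA Th-cre replicates 1 to 3, no gene of the list was called, and the median was -0.72 to -0.81 there.

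Immediate early genes, transcription factors induced within minutes of stimulation, fell in 3 of 14 cases (median -0.51), against 1.32% of all genes. Fosb was at 22.9, 83.8, 398 and 131 in wild type and at 0, 6.06, 6.04 and 13 in TrkA Th-cre (log2 fold change -4.31 ± 0.92, SE; limma adjusted p = 0.0391), and Egr1 at 332, 459, 1399 and 669 against 131, 122, 257 and 229 (-1.80 ± 0.41, SE; limma adjusted p = 0.0476). Egr3 was at 129 to 151 against 85.7 to 107 (log2 fold change -0.54, limma adjusted p = 0.0387). The groups did not overlap. Within wild type Fosb and Egr1 had the order of the intestinal sums, lowest in replicate 1 and highest in replicate 3, and the part of the intestinal transcripts in their difference was not tested. The calls were lost in 6, 5 and 7 of the 8 fits with 1 library left out, with adjusted p up to 0.121, 0.134 and 0.108, and none was called without wild-type replicate 2 or 4 or TrkA Th-cre replicate 1, 2 or 3. With a covariate for glandular epithelium none of the list was called (median -0.34).

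The intestinal genes themselves fell in 3 of 12 cases (1.32% of all genes fell), and all 12 were negative (median -4.09). Hnf4a, a transcription factor of gut and liver epithelium, was at 12.7, 131, 630 and 216 in wild type and at 1.25, 8.07, 5.75 and 0 in TrkA Th-cre (adjusted p = 0.0351, limma). Mptx1 and Gsdmc4, a pentraxin and a gasdermin of intestinal epithelium, had the same library order within wild type, with log2 fold changes of -5.42 and -4.96. All 12 fell without wild-type replicate 1, 1 fell without wild-type replicate 3 or TrkA Th-cre replicate 2, and none was called without wild-type replicate 2 or 4 or TrkA Th-cre replicate 1 or 3. In the other 35 libraries Hnf4a ran from 0 to 570 and Gsdmc4 from 0 to 1425, so such levels were not particular to these wild-type samples. Hnf4a was at 74.5 to 480 in the groups at postnatal day 25. In wild type at postnatal day 28 and 30 C it was at 9.81 to 570, and in the groups at 9 weeks at most at 9.82. For Gsdmc4 these levels were 164 to 609, 13.4 to 1425 and at most 8.08. Glandular epithelium genes did not pass in any of 12 cases (1 at an unadjusted p under 0.05), and their sums were 92.79, 1573, 8405 and 3714 in wild type and 137.9, 207.2, 2588 and 108.4 in TrkA Th-cre.

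Skeletal muscle genes rose in 3 of 14 cases (1.34% of all genes rose), and 13 were positive. The groups did not overlap in 10 (5.63% of all genes in that direction), and the median was 1.91. Myh2, the fast oxidative myosin heavy chain, was at 1.04, 2.19, 0.973 and 6.28 in wild type and at 34.1, 18.2, 28.2 and 34.6 in TrkA Th-cre, a log2 fold change of 3.22 ± 0.49 (SE; adjusted p = 0.0118, limma). Mybpc2, a myosin-binding protein of fast fibres, and Ttn, the sarcomeric spring titin, rose by 1.97 and 1.89 (limma adjusted p = 0.0338 and 0.0475). Ttn was at 62.8, 38.5, 73.4 and 53.3 against 555, 160, 106 and 200, so TrkA Th-cre replicate 1 held the most and replicate 3 the least of its group. Mybpc2 and Ttn lost significance in 5 and 6 of the 8 fits with 1 library left out (adjusted p up to 0.103 and 0.127), and Myh2 in none. Only 1 member was called without any 1 of the 4 wild-type libraries or TrkA Th-cre replicate 2, and without TrkA Th-cre replicate 1 the list's median was 1.37.

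In the Ifi200, Gbp and Trim5/30 families 3 of 24 tested rose, Ifi202b, Gbp2b and Trim34b, and 2 fell, Trim30b and Trim30d. Over all genes 1.34% rose and 1.32% fell. Trim34b was at 0, 0, 0 and 5.49 in wild type and at 22.3, 17, 14.1 and 17.3 in TrkA Th-cre (adjusted p = 0.0275, limma), a call lost without any 1 of 5 libraries (adjusted p up to 0.0825), and 69.0% of its 31-base words occur in other genes. Trim30d was at 97.7, 145, 164 and 117 against 2.72, 6.29, 14.6 and 52.7 (log2 fold change -3.40, limma adjusted p = 0.0292), a call lost without any 1 of 6 libraries (adjusted p up to 0.0859). In Trim12a the pattern was split within TrkA Th-cre, at 2.57, 2.48, 0 and 149 against 209 to 331 in wild type, and it missed the threshold (log2 fold change -5.31, limma adjusted p = 0.0501). TrkA Th-cre replicate 4 was the library nearest to wild type for Trim12a, Trim30b and Trim30d. The median of the families was -0.08, and no gene of the general interferon list passed.

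In the lists of the unfolded protein and integrated stress response, circadian clock, cell cycle, and histidine and one-carbon catabolism, 1 gene each passed. Trib3, a pseudokinase induced by the integrated stress response, rose by 1.34 (1 of 15, limma adjusted p = 0.0171), and Per2, a repressor of the circadian clock, by 0.62 (1 of 15, limma adjusted p = 0.0426). Mcm6, a subunit of the replicative helicase, fell by 0.94 (1 of 22 cell cycle genes, limma adjusted p = 0.0338). They were lost in 3, 7 and 7 of the 8 fits with 1 library left out, with adjusted p up to 0.0539, 0.116 and 0.0952. In histidine and one-carbon catabolism Hal rose and the other 7 tested genes did not pass. None of 12 heat shock and cold-inducible, 5 lymphatic endothelial or 2 epidermis and hair follicle genes passed in limma. Each of these lists had 1 gene at an unadjusted p under 0.05.

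The changed genes lay on all 20 chromosomes examined. The share called was highest on chromosome 3, with 26 of 568 tested genes (4.58%), and lowest on chromosome 17, with 8 of 591 (1.35%), against 2.66% over all genes. Around Th, 1 of 85 tested genes was called within 5 Mb on either side (1.18%) and 3 of 214 within 20 Mb (1.40%).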

How the data were processed

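RNA was taken from flash-frozen inguinal fat and sequenced as stranded poly(A) libraries, per the labels' protocols. The authors deposited signal values, which are normalized counts per gene, in a table of the 8 libraries. Per the submitters' processing notes the tools were kallisto and DESeq2 with mm10, but their versions, the annotation and the settings were not given in the sources used here. Low values were spaced by the worth of 1 read, which gave the depth estimates, but only 70.9 to 76.0% of them were whole multiples (tolerance 0.02), so no count model was used.

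Genes reaching 10 in at least 4 libraries were tested with limma 3.58.1 (R 4.3.3, mean-variance trend) on log2(value + 1), two-sided, with Benjamini-Hochberg adjustment over 11899 genes and significance at 0.05. On this scale the fold changes of low genes are understated. On simulated data the script was tested for recovery of known changes. Named genes were the targeted genes, a panel of 12 and the 8 largest rises and 8 largest falls with every library beyond the other group's mean. Leading members of 40 lists and the changed genes with the smallest p or the highest mean level were named too. Some of these genes are not reported here. All members, lists and families were chosen with earlier results of these data known. Shared 31-base words were counted in GENCODE mouse transcripts. The other tables were used only for levels. Other scalings, filters, pseudocounts, covariates and each library left out in turn were alternatives. Figures used matplotlib 3.10.9 in Python 3.11.15.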

Additional observations from a re-analysis of the deposited data

Results flagged for a closer look

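Over 93 named genes, 182 groups of 4 libraries were examined for a library that stands apart. The measure was the gap between an extreme library and its nearest neighbour as a share of the group's range. It was taken on log2(value + 1), not on the normalized counts printed below, and set against Dixon's critical value for 4. Chance flags about 1 in 20 groups, and 12 groups (6.59%) were flagged, 5 of them for TrkA Th-cre replicate 4.

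For Cdh19 that library held 11.9 normalized counts against 17 to 17.1 in the other 3 of its group (gap share 0.973), for Mettl7a1 1210 against 1710 to 1770 (0.915) and for Pfkp 372 against 298 to 304 (0.910). For Unc5b it held 108 against 69.2 to 74.1 (0.849), and for Trim30b 5.32 where the others were at 0 (1.00). The Pfkp, Unc5b, Mettl7a1 and Trim30b values lay toward the wild-type level, and that of Cdh19 away from it.

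TrkA Th-cre replicate 3 was the highest of its group for Hal, at 516 against 178 to 201 (0.886), and for Fads2, at 76.5 against 44.9 to 48.0 (0.873). TrkA Th-cre replicate 1 was the lowest for Adrb3, at 1260 against 1750 to 1870 (0.834). In wild type, replicate 4 held 5.49 of Trim34b where the others were at 0 (1.00). Wild-type replicate 3 was the lowest for Plin1, at 3660 against 5240 to 5370 (0.935), and for Ntrk2, at 908 against 996 to 1010 (0.856). Wild-type replicate 1 held 2.08 of Gm6756, of which the others held 0 (1.00).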

How the results depend on the processing

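The number of changed genes was 317 as reported (160 up, 157 down, 135 at least 2-fold). With library quality weights it was 957 (463 up, 494 down, 256 at least 2-fold), with a skeletal muscle covariate 20 (13, 7 and 19), and with one for glandular epithelium 201, of which 93 were up. With only the 5 libraries of low Xist, chosen after seeing the data, it was 25 (14, 11 and 25). The cause of these shifts was not tested, but the last setting also has fewer libraries. Leaving out 1 library gave 93 to 924 changed genes, 50 to 495 up, 34 to 429 down and 57 to 237 at least 2-fold. Upper-quartile scaling, quantile normalization, pseudocounts of 0.5 and 5, no filter, other filters, robust variance shrinkage and an Xist covariate gave 263 to 328. With the replicate number as a replicate block 257 genes were called (107 up, 150 down, 160 at least 2-fold), 183 of them among the 317. No label says whether the numbers pair the samples. Deviations of same-numbered libraries correlated at 0.122, 0.155, 0.207 and -0.14, and those of differently numbered libraries at -0.314 to 0.251. Whether the samples are paired is not settled by these values. Of 65 named genes that were called, 29 were called with any 1 library left out and 12 with the muscle covariate. Low depth limits genes near 10 normalized counts, and a gene below the filter is not shown to be unchanged.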

Other observations

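Some gene groups outside the lists changed, and they were chosen after their values were seen. Among imprinted growth genes 3 of 14 tested rose. Peg3, a paternally expressed zinc finger gene, was at 377, 414, 356 and 361 normalized counts in wild type and at 827, 935, 726 and 514 in TrkA Th-cre, a log2 fold change of 0.96 ± 0.16 (SE; adjusted p = 0.0174, limma). Its neighbour Zim1 was at 18.9, 16.2, 13.8 and 13.8 against 37.1, 62.5, 47.9 and 29.6 (log2 fold change 1.40, limma adjusted p = 0.0260). Neither gene overlapped between groups, and the third was Nnat. Peg3 lost significance without wild-type replicate 4 or TrkA Th-cre replicate 1 (limma adjusted p up to 0.0593), and Zim1 without any 1 of 5 libraries (up to 0.0811).

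Of 7 tested genes of iron uptake, with a median log2 fold change of -0.04, the receptors for transferrin, which carries iron into cells, fell. Tfrc was at 744, 605, 630 and 698 in wild type and at 387, 237, 348 and 406 in TrkA Th-cre, a log2 fold change of -0.98 ± 0.16 (SE; adjusted p = 0.0146, limma), and reached 0.0521 without wild-type replicate 4. Tfr2 was at 10.6, 15.7, 20.9 and 24 against 4.00, 3.70, 1.03 and 2.20 (adjusted p = 0.0283, limma), a call lost without any 1 of 6 libraries (adjusted p up to 0.121). Of 6 tested progestin and adipoQ receptors, Paqr4, Paqr7 and Paqr9 fell by 0.68, 0.88 and 1.06 on the log2 scale, with calls lost without any 1 of 4, 5 and 4 libraries. Of 6 tested prostaglandin receptors 1 fell and 1 rose. The prostaglandin E receptor Ptger3 fell from 336, 366, 317 and 542 to 212, 161, 190 and 155 (adjusted p = 0.0134, limma), while the prostaglandin F receptor Ptgfr rose by 1.63 (adjusted p = 0.0427, limma), a call lost without any 1 of 6 libraries (adjusted p up to 0.112).

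Basal keratins stood out in TrkA Th-cre replicate 3, a library with high Xist. Krt5 was at 162 there and at most 16.5 in the other 7 libraries, Krt14 at 95.5 and Krt17 at 86.6. Krt8, a keratin of simple epithelium, was instead highest in wild-type replicates 2 to 4, at 773, 3893 and 1857.

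Of the changed genes without a list, 3 were named for their small p, a choice that itself favours tight and well separated replicates. Serinc3, a serine incorporator family membrane protein, was at 2956, 3112, 3301 and 3051 in wild type and at 1653, 1558, 1566 and 1208 in TrkA Th-cre, a log2 fold change of -1.06 ± 0.11 (SE; adjusted p = 0.00128, limma). Aatk, a kinase first described in apoptosis of myeloid cells, was at 193, 169, 169 and 193 against 63.0, 71.7, 80.7 and 71.5 (log2 fold change -1.32 ± 0.12, SE; limma adjusted p = 0.000452). Zfp868, a zinc finger gene on chromosome 8, was at 56.2, 67.1, 81.8 and 65.5 against 274, 209, 233 and 236 (adjusted p = 0.000195, limma). All 3 were separated in every library and called with any 1 library left out.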
